A study of Homo sapiens with 6 samples.

Results

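The cytosolic RNA sensors are proteins that bind double-stranded RNA in the cytoplasm, with the adaptor that relays their signal. Here they comprise 6 genes, taken by name from the gene-level table: RIGI, IFIH1, DHX58, EIF2AK2, ADAR and MAVS. Each had 1 transcript cluster (the array's unit for a gene) with a single symbol, and these are 6 of 22411 genes so named. All 6 had a mean signal above the background limit of 6.01 on the log2 scale, the mean of the brightest of 23 background control sets, as did 9324 genes in all.

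The 6 arrays came from HaCaT cells, an immortalised human keratinocyte line. 3 cultures were exposed once to X-rays, to a dose of 20 Gy delivered at 1.15 Gy each minute, and 3 were mock-irradiated (0 Gy), with collection after 48 h. The titles term them biological replicates and number them 1 to 3 in both groups. They state no pairing, and an irradiated and a mock culture of the same number were taken as a pair here. All came from a single line grown in vitro, so the groups share its genetic background. The labels do not say whether the cultures were grown separately, so p-values measure the spread between these samples, which may be technical. The design asks which transcripts differ between irradiated and mock-irradiated keratinocytes. With 3 arrays a group, the array number sets the precision.

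RIG-I (RIGI) and MDA5 (IFIH1) are helicases that recognise RNA with features of viral genomes, RIG-I preferring ends with a triphosphate and MDA5 long duplexes. Both carry signalling domains that engage MAVS on mitochondria, and MAVS then activates kinases that switch on interferon genes. LGP2 (DHX58) is their relative without those domains, PKR (EIF2AK2) halts translation when it binds double-stranded RNA, and ADAR1 (ADAR) edits adenosine to inosine in duplexes and so marks them as self. In keratinocytes, as in most cells, the receptors, PKR and the long form of ADAR1 are themselves interferon-stimulated.

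Of 9 measured immune cell markers 1 lay above the background limit (CD68), as did 0 of 5 fibroblast, 1 of 5 melanocyte (MITF) and 0 of 5 endothelial markers, against 6 of 6 keratinocyte markers (KRT5, KRT14, DSP, PKP1, SFN and PERP). Measured means having a cluster with a single symbol, which 6 of the 10 listed keratinocyte markers had. KRT6A, KRT17, TP63 and COL17A1 had none. The mean log2 signal of the immune list ran from 4.56 to 4.72 on irradiated arrays and from 4.45 to 4.57 on mock arrays. That of the fibroblast list ran from 4.38 to 4.50 on irradiated and from 4.28 to 4.45 on mock arrays, that of the melanocyte list from 4.59 to 4.69 on irradiated and from 4.46 to 4.48 on mock arrays, and that of the endothelial list from 4.26 to 4.41 on irradiated and from 4.06 to 4.34 on mock arrays. That of the keratinocyte list ran from 14.05 to 15.07 on irradiated and from 14.46 to 15.24 on mock arrays. The array medians over all clusters ran from 4.62 to 4.66 on irradiated and from 4.53 to 4.63 on mock arrays. With each array centred on its median, which removes this difference, RIGI lay at 1.31, IFIH1 at 0.96 and EIF2AK2 at 0.59 (log2 difference, irradiated minus mock), against 1.38, 1.04 and 0.67 on the deposited values. In such bulk samples, fewer cells that express a gene and less RNA per cell cannot be told apart.

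Promoter sequences are shown for the 3 sensors that rose after irradiation and for MAVS, which did not, so that any interferon-type elements can be seen. These genes were chosen by their results, and whether such elements bear on the changes was not tested. 5 of the 6 genes matched the RefSeq promoter table (GRCh38.p14), DHX58 being the other one, and each window covers 250 bases before the start site and the 50 after it. Two-part elements of the form GAAANNGAAA, read on both strands, were searched. The form GAAANGAAA was added after the RIGI window had been seen, so its match there was known beforehand. Capitals mark every match to either form, and the lines run 5′ to 3′ on the gene's strand.
RIGI: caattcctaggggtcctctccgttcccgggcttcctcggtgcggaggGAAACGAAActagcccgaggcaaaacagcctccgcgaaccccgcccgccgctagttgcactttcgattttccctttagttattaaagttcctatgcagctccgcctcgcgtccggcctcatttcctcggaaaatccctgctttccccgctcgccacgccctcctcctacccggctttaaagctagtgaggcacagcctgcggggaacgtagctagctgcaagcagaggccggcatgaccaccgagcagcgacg
IFIH1: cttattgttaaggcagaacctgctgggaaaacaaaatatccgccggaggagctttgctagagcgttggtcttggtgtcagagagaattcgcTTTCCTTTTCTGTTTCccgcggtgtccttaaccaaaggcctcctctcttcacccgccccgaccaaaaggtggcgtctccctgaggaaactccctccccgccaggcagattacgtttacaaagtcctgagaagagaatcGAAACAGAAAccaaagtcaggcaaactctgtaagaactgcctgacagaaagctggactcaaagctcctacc
EIF2AK2: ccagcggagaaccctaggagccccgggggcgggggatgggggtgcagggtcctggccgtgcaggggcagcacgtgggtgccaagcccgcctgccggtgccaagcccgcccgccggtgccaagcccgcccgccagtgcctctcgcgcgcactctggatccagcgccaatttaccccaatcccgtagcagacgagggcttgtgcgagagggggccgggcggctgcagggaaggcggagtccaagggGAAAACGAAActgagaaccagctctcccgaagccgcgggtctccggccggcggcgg
MAVS: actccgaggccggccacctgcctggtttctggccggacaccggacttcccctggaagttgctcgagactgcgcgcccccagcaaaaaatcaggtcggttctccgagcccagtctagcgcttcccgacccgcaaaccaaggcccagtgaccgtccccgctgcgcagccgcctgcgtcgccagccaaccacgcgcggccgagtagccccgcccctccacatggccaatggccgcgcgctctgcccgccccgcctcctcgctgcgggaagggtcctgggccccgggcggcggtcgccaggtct

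The RIGI window (chr9:32526147-32526446, minus strand) held 1 GAAANGAAA, starting at position -203 from the start site, and 0 GAAANNGAAA. The IFIH1 window (chr2:162318635-162318934, minus strand) held 3 GAAANNGAAA, of which 1 on the gene's strand started at -21 and the others, on the opposite strand at -159 and -153, overlapped each other. The EIF2AK2 window (chr2:37156931-37157230, minus strand) held 1 GAAANNGAAA at -6. The MAVS window (chr20:3846584-3846883, plus strand) and the 3 ADAR windows in the table held 0 of either form. Of all 35116 windows, 3.57% held GAAANNGAAA, 3.12% held GAAANGAAA and 6.4% held at least 1 of them. These matches describe letters in the windows and do not show that a factor binds there.

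RIGI, IFIH1 and EIF2AK2 were higher in irradiated cells, by 2.61-fold, 2.05-fold and 1.59-fold, in limma's test paired by replicate number over the 9324 genes above background. These were 3 of 6 members, all upward, where the same test called 5.01% of genes, 1.3% as higher and 3.71% as lower (467 genes, 121 higher and 346 lower). DHX58 and ADAR lay 1.23-fold and 1.17-fold higher and MAVS at 0.81 of its mock signal, and these 3 did not pass. The median difference over the 6 members was 0.48 on the log2 scale, beside -0.09 over all genes above background. The calls rest on the pairing and on leaving out dim genes. The unpaired test over all 67528 clusters, the planned one, called 0 members and 0% of clusters, with 1 member, RIGI, at an unadjusted p under 0.05, as were 7.14% of clusters. With the replicate number as a block it again called 0 members and 0% of clusters, with 5 members (all but ADAR) at an unadjusted p under 0.05, as were 15.2% of clusters.

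Higher signals in all 3 pairs were seen in 4 of 6 members (RIGI, IFIH1, DHX58 and EIF2AK2), beside 9.94% of genes above background. MAVS was lower in all 3 pairs, as were 41.9% of those genes. For 2 members, RIGI and DHX58, every irradiated array lay above every mock array, beside 1.54% of genes. The direction of calls across all genes depended on scaling, with 119 of 203 calls upward after quantile normalization and 116 of 179 after cyclic loess, against 121 of 467 on the deposited values. With each array centred on its median it was 133 of 1691.

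**Figure D1:**
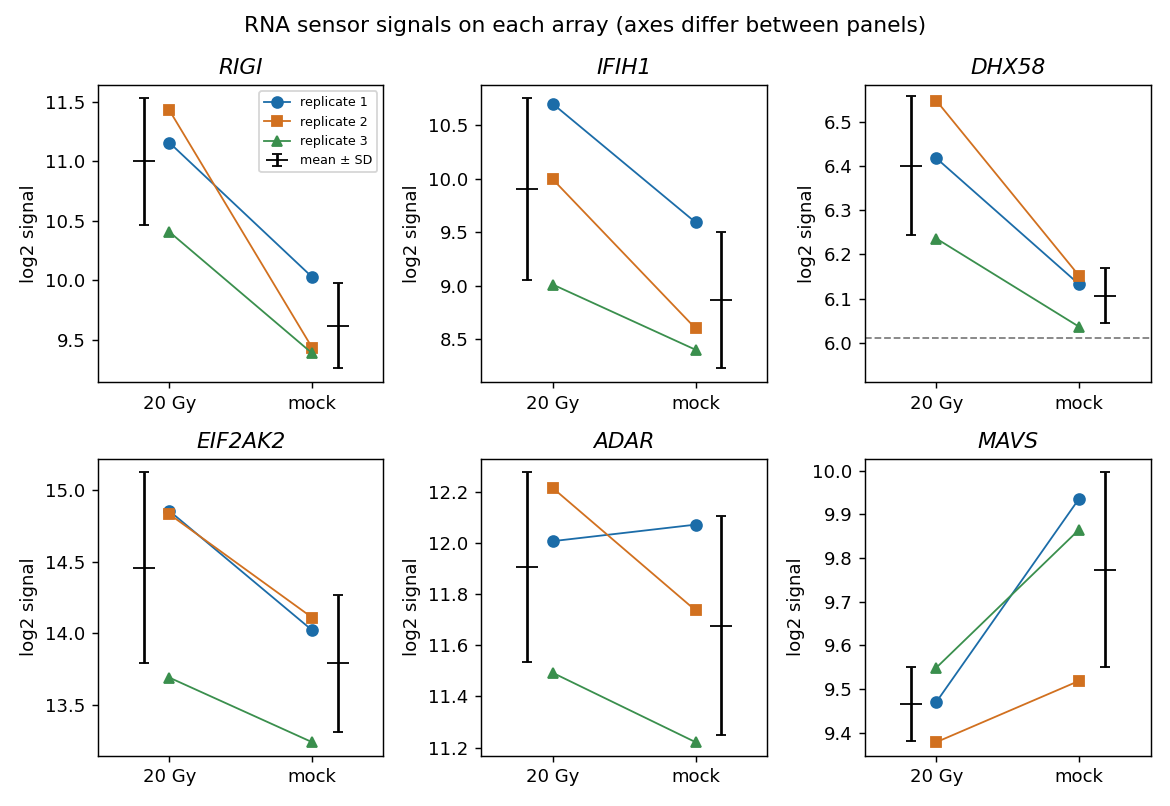
Log2 signal of each sensor gene (vertical axis, a separate scale in each panel) on the irradiated arrays (20 Gy, left) and the mock arrays (right). Coloured lines join cultures of the same number, black bars give the mean ± SD of 3 arrays, and the dashed line in the DHX58 panel is the background limit of 6.01. RIGI and DHX58 separate fully, and in the 5 members other than MAVS the cultures of replicate 3 lie lowest within their groups.

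RIGI, the receptor for RNA with triphosphate ends, had log2 signals of 11.16, 11.43 and 10.41 on irradiated arrays 1 to 3, against 10.03, 9.43 and 9.38 on mock arrays 1 to 3. The lowest irradiated culture, number 3, still exceeded the highest mock culture, number 1. The means were 11.00 ± 0.53 in irradiated and 9.61 ± 0.36 in mock cells (SD, n = 3 each). RIGI rose by 1.38 (SE 0.19, adjusted p = 0.0254 in the paired limma test), with a 95% interval from 1.92-fold to 3.55-fold. The differences in pairs 1, 2 and 3 were 1.13, 2.00 and 1.02, so that pair 2 was largest and the others lay close together. In size this was rank 15 among the increases of the 9324 genes. It was the largest difference among the 6 members in each pair.

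IFIH1, the receptor for long duplexes, had log2 signals of 10.70, 10.00 and 9.01 on irradiated arrays, against 9.59, 8.60 and 8.40 on mock arrays. The groups overlapped, because mock culture 1 lay above irradiated culture 3, while each irradiated culture exceeded the mock culture of its own number. The means were 9.90 ± 0.85 in irradiated and 8.87 ± 0.64 in mock cells (SD, n = 3 each). IFIH1 rose by 1.04 (SE 0.14, adjusted p = 0.0265, paired limma), with an interval from 1.61-fold to 2.61-fold. The pairs gave 1.11, 1.39 and 0.61. The RIGI change exceeded the IFIH1 change by 0.02, 0.61 and 0.41 in the pairs, so the receptors moved by nearly the same amount in pair 1 and by less equal amounts in the others. Its size was rank 27 among the increases.

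DHX58, whose product LGP2 tunes both receptors without signalling itself, was close to background. Its log2 signals were 6.42, 6.55 and 6.24 on irradiated arrays, against 6.13, 6.15 and 6.04 on mock arrays, and the groups did not overlap. All 6 values exceeded the limit of 6.01, but only 4 exceeded the brightest background set of their own array. The exceptions were irradiated array 2, where that set lay at 7.25, and mock array 1, where it lay at 6.88. The mean difference was 0.29 (SE 0.070, 95% interval 0.13 to 0.46) and did not pass (adjusted p = 0.0621, paired limma). The pairs gave 0.29, 0.40 and 0.20. The RIGI change exceeded that of DHX58 by 0.85, 1.60 and 0.82 and the IFIH1 change exceeded it by 0.82, 1.00 and 0.41, in the same direction each time, although the signal of DHX58 near background limits how far its change can be read.

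EIF2AK2, which encodes PKR, had log2 signals of 14.85, 14.83 and 13.69 on irradiated arrays, against 14.02, 14.11 and 13.24 on mock arrays. Replicate 3 was lowest in both groups, by more than the size of the irradiation difference within it, and irradiated culture 3 lay below mock cultures 1 and 2. The means were 14.46 ± 0.67 in irradiated and 13.79 ± 0.48 in mock cells (SD, n = 3 each). EIF2AK2 rose by 0.67 (SE 0.097, adjusted p = 0.0266, paired limma), with an interval from 1.35-fold to 1.87-fold. The pair differences were 0.83, 0.72 and 0.45. The call was lost without pair 1 (adjusted p = 0.0593) and without pair 2 (0.0748), with differences of 0.59 and 0.64, and held without pair 3 (0.78, adjusted p = 0.0281). In unpaired fits that dropped a single array, the difference was 1.05 when irradiated culture 3 was dropped and 0.39 when mock culture 3 was dropped. That of IFIH1 was 0.64 when irradiated culture 1 was dropped.

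ADAR, the editing enzyme, had log2 signals of 12.01, 12.22 and 11.49 on irradiated arrays, against 12.07, 11.74 and 11.22 on mock arrays. Culture 1 was slightly lower after irradiation and cultures 2 and 3 were higher, with differences of -0.06, 0.48 and 0.27. The means were 11.91 ± 0.37 in irradiated and 11.68 ± 0.43 in mock cells (SD, n = 3 each), and the mean difference of 0.23 (SE 0.11, 95% interval -0.04 to 0.50) did not pass (adjusted p = 0.233, paired limma). In unpaired fits that dropped a single array it ran from 0.00074 without mock culture 3 to 0.44 without irradiated culture 3. The cluster reads all ADAR transcripts together, so its interferon-responsive and constitutive forms cannot be told apart here. The EIF2AK2 change exceeded the ADAR change by 0.90, 0.24 and 0.18 in the pairs.

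MAVS, the mitochondrial adaptor, had log2 signals of 9.47, 9.38 and 9.55 on irradiated arrays, against 9.94, 9.52 and 9.86 on mock arrays. Irradiated culture 3 lay just above mock culture 2, the only overlap between the groups, and each irradiated culture lay below the mock culture of its number. The means were 9.47 ± 0.085 in irradiated and 9.77 ± 0.22 in mock cells (SD, n = 3 each). The mean difference of -0.31 (SE 0.086, 95% interval -0.51 to -0.10) did not pass (adjusted p = 0.0837, paired limma), with -0.47, -0.14 and -0.32 in the pairs. It passed when arrays were centred on their medians (-0.38, adjusted p = 0.0380, paired limma). With that scaling 84.5% of genes above background lay below 0, and 1558 of 9324 were called lower. The MAVS difference lay at -0.21 after quantile normalization and after cyclic loess (adjusted p = 0.209 and 0.205). The RIGI change exceeded that of MAVS by 1.60, 2.14 and 1.34, the IFIH1 change by 1.57, 1.53 and 0.93 and the EIF2AK2 change by 1.30, 0.86 and 0.77. The changes of both receptors thus exceeded that of their adaptor in each pair of cultures.

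**Figure D2:**
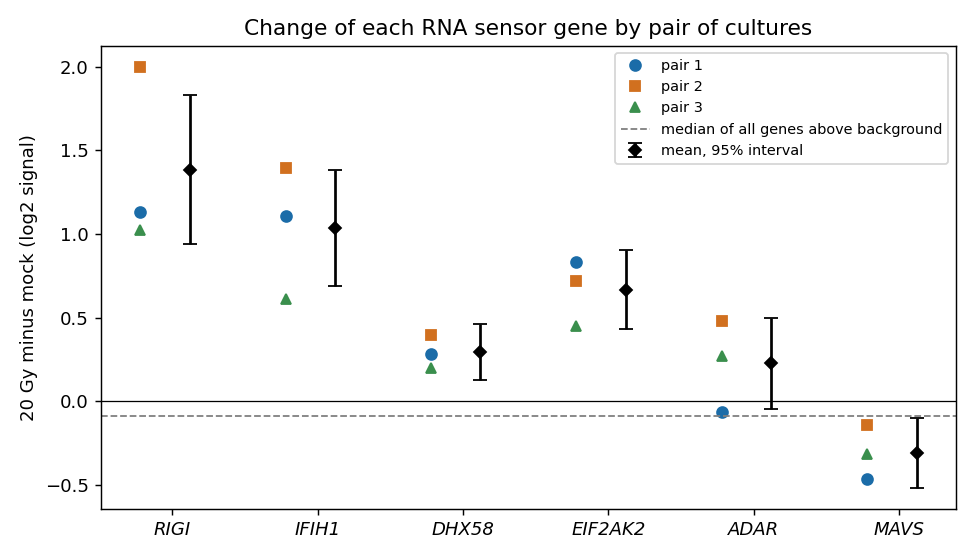
Difference in log2 signal between the irradiated and the mock culture of the same number (coloured points) for each sensor gene, with the mean and its 95% interval from the paired limma test (black diamonds and bars). The dashed line at -0.09 is the median of all 9324 genes above background. The points of RIGI, IFIH1, DHX58 and EIF2AK2 lie above 0, those of MAVS below 0 and those of ADAR on both sides.

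An exact permutation test over the 6 arrays, two-sided, gave p = 0.1 for RIGI and DHX58, the smallest p that 3 arrays against 3 allow. It gave 0.2 for IFIH1 and MAVS, 0.3 for EIF2AK2 and 0.6 for ADAR. Changing the signs of the 3 pair differences gave p = 0.25, the smallest possible, for 5 members and 0.5 for ADAR in the exact two-sided test. No member could pass 0.05 in these tests. For RIGI the SD over the pair differences was 0.54, beside 0.40 for IFIH1, 0.20 for EIF2AK2, 0.099 for DHX58, 0.27 for ADAR and 0.16 for MAVS. limma draws each gene's variance toward that of genes of like signal, so its SEs and intervals do not rest on these SDs alone.

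**Figure D3:**
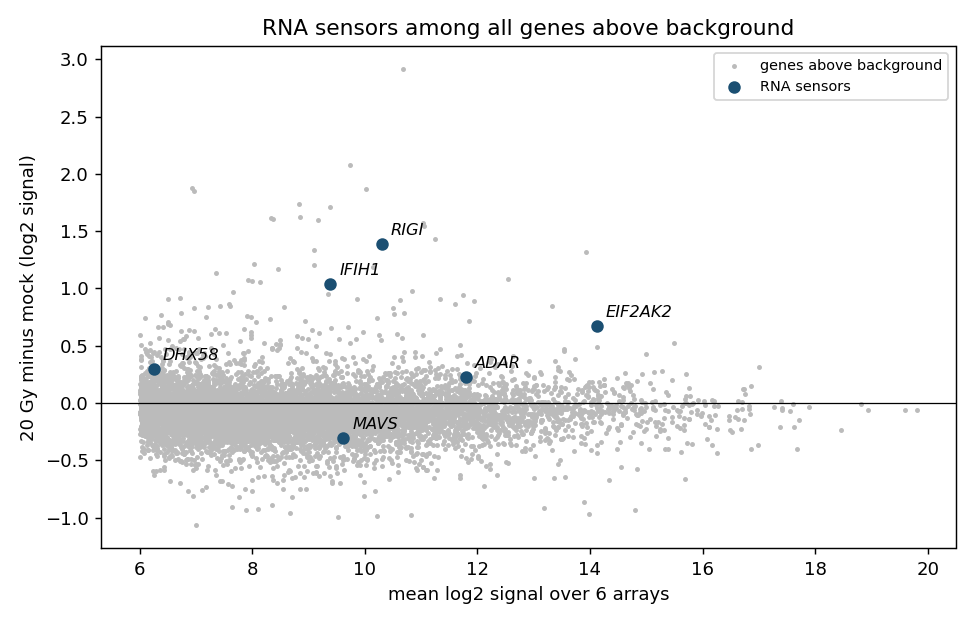
Difference in log2 signal, irradiated minus mock (vertical axis), against the mean log2 signal over the 6 arrays (horizontal axis) for the 9324 genes above background (grey) and the 6 sensor genes (blue). RIGI at 1.38 and IFIH1 at 1.04 stand near the upper edge of the genes, and EIF2AK2 at 0.67 does so among the brightest ones. DHX58, ADAR and MAVS lie less far out, at ranks 282, 455 and 8480 of 9324 from the highest difference.

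Across the 6 arrays the 5 members other than MAVS varied together. Their log2 signals had Pearson correlations from 0.69 (RIGI with ADAR) to 0.96 (RIGI with DHX58), and those with MAVS ran from -0.80 (DHX58) to -0.37 (ADAR). These are descriptions over 6 arrays that share group and culture number. Among other genes above background, the closest to RIGI were SNAR-D, a small non-coding RNA with near-identical copies (r = 0.98), DKK1, a secreted WNT antagonist (0.98), and PLEKHF1 (0.97). The closest to IFIH1 were DUSP14, a phosphatase (r = 0.996), RND3 (0.98), and KRR1, a ribosome assembly factor (0.98). Those to DHX58 were IFI44, an interferon-induced gene (r = 0.99), PHLDA1 (0.97) and LINC00415 (0.97).

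EIF2AK2 was followed most closely by ERP44, a chaperone of the secretory pathway (r = 0.99), DDX60L, an interferon-induced helicase (0.99), and ZC3HAV1L (0.99). The closest to ADAR were ANKFY1, SBNO2 and STC2 (r = 0.99 for each), and to MAVS CTBP1, a corepressor, CAMTA2 and DUOX1, a dual oxidase (0.99 for each). These genes were picked for their likeness on the same arrays, so their differences are a description and no separate evidence. A high r says little of size. DUSP14 and ERP44 differed by 0.14 and 0.12 between the groups, and neither passed (adjusted p = 0.235 and 0.313). Of these 18 genes, 5 rose and 0 fell in the paired limma test, beside 1.3% and 3.71% of all genes above background. Likeness to a member that rose favours an upward call. The 5 were DKK1 at 2.08 (adjusted p = 0.00930, paired limma), IFI44 at 1.71 (0.0160), DDX60L at 1.06 (0.0160), LINC00415 at 0.83 (0.0267) and RND3 at 0.60 (0.0348). RND3 lost its call without pair 1 or 2 (adjusted p = 0.0691 and 0.122), as did LINC00415 (0.0502 and 0.0662), and DDX60L lay at 0.68 in an unpaired fit with mock culture 3 dropped.

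Of 132 genes listed in 7 pathway lists, 122 were measured and 89 lay above background. Of these 89, 2 were called higher (2.25%) and 0 lower, beside 1.3% and 3.71% of all genes, and their median difference was -0.06. With arrays centred on their medians 10 of the 89 were called, 3 higher and 7 lower, beside 133 higher and 1558 lower of all 9324 genes above background. Both calls came from the list of genes that limit endogenous double-stranded RNA, 2 of 10 above background, with a list median of -0.02. SAMHD1, a dNTP hydrolase that restrains nucleic acid sensing, averaged 12.03 ± 0.63 in irradiated and 11.17 ± 0.25 in mock cells (log2 signal, SD, n = 3 each), and rose by 0.86 (SE 0.14, adjusted p = 0.0324, paired limma). PNPT1, a mitochondrial RNA-degrading enzyme, averaged 11.57 ± 0.71 in irradiated and 11.10 ± 0.57 in mock cells and rose by 0.47 (SE 0.084, adjusted p = 0.0356). PNPT1 was not called once any pair was left out (adjusted p from 0.0644 to 0.152), and SAMHD1 was not called without pair 1 (0.0616) or pair 2 (0.0892). In unpaired fits that left out a single array, PNPT1 lay at 0.099 and 0.80 when irradiated culture 2 or 3 was dropped, and at 0.77 and 0.20 when mock culture 2 or 3 was dropped. Both are known to be induced by interferon.

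Among regulators of the RIG-I-like receptors, 0 of 16 genes above background passed, with a median of -0.07. ZC3HAV1, whose short form binds RIG-I, was highest at 0.83 (0.35, 1.52 and 0.62 in the pairs, adjusted p = 0.0667, paired limma). USP21, a deubiquitinase of RIG-I, lay at -0.29 (adjusted p = 0.0606). TKFC, an inhibitor of MDA5 signalling chosen after its value was seen, lay at -0.26 (adjusted p = 0.0768). In MAVS signalling, 0 of 28 passed, the median was -0.08 and 24 of the 28 lay below 0, beside 71.8% of all genes above background. After quantile normalization 14 of the 28 lay below 0, beside 54.2% of all genes. TRADD, an adaptor recruited by MAVS, lay at -0.30 (adjusted p = 0.0510) and TNFAIP3, the NF-kB inhibitor A20, at 0.56 (adjusted p = 0.0673). IRF3 and IRF7, the interferon regulatory factors of this route, were named after their values were seen. Both had a mean below the background limit and were not in the test. IRF7 had log2 signals of 5.90, 6.05 and 5.74 on irradiated arrays, against 5.68, 5.52 and 5.51 on mock arrays. Its value on irradiated array 2 exceeded the limit but not that array's brightest background set (7.25). IRF3 had 5.51, 5.73 and 5.63 on irradiated arrays, against 5.54, 5.84 and 5.59 on mock arrays.

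Around PKR, 0 of 16 passed and the median was -0.09, with EIF2AK3, the endoplasmic reticulum eIF2 kinase PERK, at -0.29 (adjusted p = 0.0963, paired limma) and EIF2S1, the eIF2 subunit that these kinases phosphorylate, at 0.17 (adjusted p = 0.185). Of other proteins that bind double-stranded RNA, 0 of 9 passed, with a median of -0.07, STAU2 at -0.24 (adjusted p = 0.111) and STRBP at -0.20 (adjusted p = 0.150). ADARB1, the other active adenosine-editing enzyme, also named after its values were seen, lay below background. Other RNA sensors and their adaptors also had 0 calls of 11, with a median of 0.06. DDX21, an RNA helicase mostly of the nucleolus, lay at 0.47 (adjusted p = 0.0631) and ZNFX1, an interferon-induced helicase that acts with MAVS, at 0.52 (adjusted p = 0.0638).

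**Figure D4:**
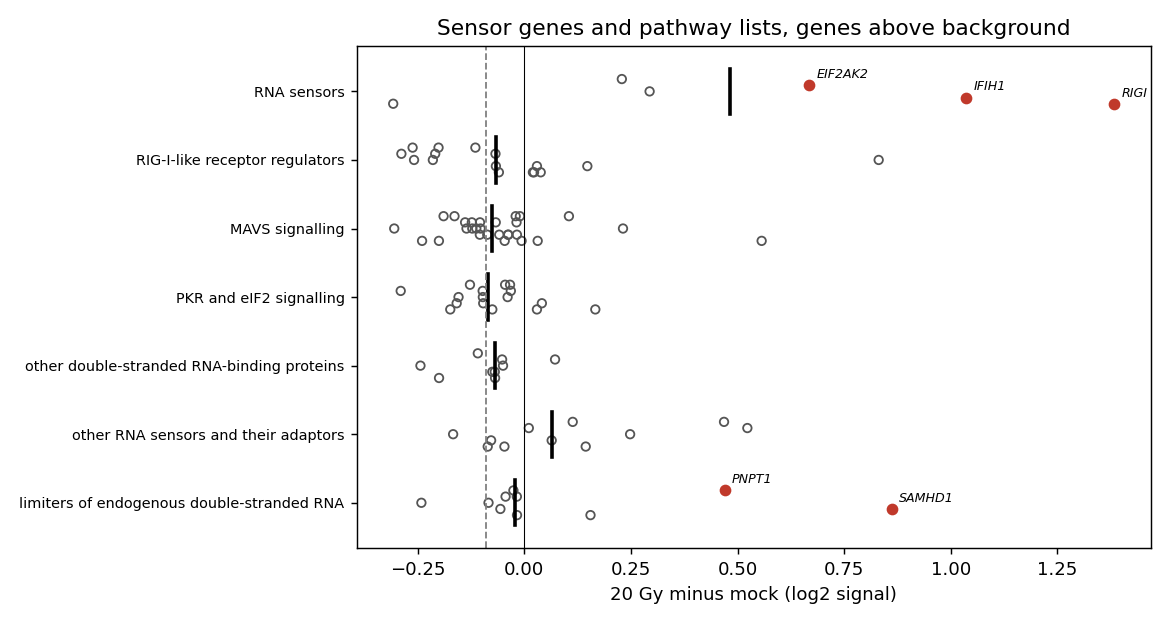
Difference in log2 signal, irradiated minus mock (horizontal axis), for the 6 sensor genes (top row) and the genes above background of 6 pathway lists, each point a gene and each black bar a row's median. Filled red points passed the paired limma test over all genes above background, and the dashed line at -0.09 is the median of all those genes. RIGI, IFIH1 and EIF2AK2 in the top row and SAMHD1 and PNPT1 in the bottom row passed, and other rows lie mostly near the dashed line.

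The products at the end of the route had low signals. All 11 interferon and chemokine genes listed had a mean below the background limit and were outside the paired test. CCL5, a chemokine, had log2 signals of 5.32, 5.97 and 5.80 on irradiated arrays, against 5.17, 5.22 and 5.15 on mock arrays. IFNE, an epithelial interferon, had 5.02, 6.63 and 4.46 on irradiated arrays, against 5.91, 5.85 and 4.71 on mock arrays. Its value on irradiated array 2 lay above the limit but below the brightest background set of that array (7.25). IFNB1, the interferon most directly induced through MAVS and named after its values were seen, had 3.53, 3.46 and 3.37 on irradiated arrays, against 3.72, 3.20 and 3.61 on mock arrays. Signals this low place no bound on the size of a change.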

How the data were processed

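Biotin-labelled material from 6 HaCaT RNA samples was hybridised to 1 array each, and titles gave the groups and replicate numbers. The gene-level table that the authors deposited holds log2 signals made with RMA (background correction, quantile normalization and summary of probes) per the submitters' processing notes, and the exon-level table holds log2 signals made with SST-RMA per the file headers. The 2995 features held by both tables had a largest difference of 0, so the gene-level log2 values may also come from SST-RMA. The genome build was not given in the sources used here, and neither were array software versions. Exon-level features were not paired with genes.

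Of the clusters, 23781 had 1 symbol in the platform annotation, updated through RefSeq gene tables. The brightest cluster stood for a gene. limma 3.58.1, run in R 4.3.3, tested the differences (lmFit, eBayes with a variance trend, two-sided, Benjamini-Hochberg, threshold 0.05). The unpaired test over all clusters was the planned one. The test paired by replicate number covered 9324 genes with a mean above 6.01. Each array's deviation from its group mean correlated with that of the same number at 0.523, 0.644 and 0.705. With other numbers it correlated at -0.555 to 0.0721. Deviations within a group cancel out, so a high r for same numbers in itself lowers the others. The numbers, which come from the sample titles, were taken to pair the cultures. Scripts were tested on simulated data.

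Members, lists and the paired test were chosen with earlier results of these data known. The paired test was known from them to make calls where the unpaired one made none. Named genes were the members, up to 4 genes of each list past the paired test or otherwise the 2 above background with the smallest p (if none was above background, the 2 brightest), and the 3 genes most correlated with each member. TKFC, IRF3, IRF7, ADARB1 and IFNB1 were added after their values were seen. 1 further promoter element was searched and is not reported here. Alternatives were scaling, filter, trend, block and arrays left out.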

Additional observations from a re-analysis of the deposited data

How the results depend on the processing

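The 6 members had the sign of their reported difference in all 9 paired alternatives, of which 2 tested other sets of genes, and in all 7 unpaired ones. ADAR lay at 0.00074 without mock culture 3 and 0.07 without irradiated culture 2, both unpaired. Alternatives that changed only the set of genes, the variance trend or the block could not alter a difference, so their signs were fixed in advance. RIGI and IFIH1 passed in 7 of the 9 paired ones, EIF2AK2 in 5, MAVS in 1, and DHX58 and ADAR in 0. In the 7 unpaired ones 0 members passed. RIGI ran from 1.08 to 1.57 in the paired alternatives, IFIH1 from 0.86 to 1.25, EIF2AK2 from 0.59 to 0.78 and ADAR from 0.10 to 0.38. Without the replicate block the paired test called 0 genes, 0 members and 0 list genes, with 312 genes below 0.05 before adjustment. Run on all genes with 1 symbol it called 0 genes (4905 at an unadjusted p under 0.05), 0 members and 0 list genes, as it did over genes above the median background set. The adjusted p of RIGI was 0.0880 and 0.0814 in those 2 tests. They adjust over more genes and also fit limma's shared variance on them, and these effects were not separated. Over all clusters with the block, the unadjusted limma p of RIGI was 0.0011, against 0.00020 over genes above background. Quantile normalization gave 203 genes, cyclic loess 179 and median centring 1691, the last with 10 list genes. The median of genes above background then lay at -0.015, -0.0092 and -0.16 against -0.089 as deposited, and the cause of the changed counts was not tested. With 1 pair left out, 66 to 251 genes, 2 to 3 members and 0 to 1 list genes were called. The unpaired test over all clusters called 0 in every alternative, its block included (lowest adjusted p = 0.210, against 0.510 without a block). No member had a second cluster to average. The dimmest member, DHX58, is limited by its signal near background.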
